A study of Mus musculus with 9 samples.

Results

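Interferon-stimulated genes were examined in 4T1 cells as a fixed list of 37 genes, listed by name as members of the type I interferon response. All 37 were present in the table of 24421 genes, and 36 of them passed the filter on low counts that kept 12575 genes for testing. The member left out was Oas2, a sensor of double-stranded RNA, with between 1 and 19 counts in a library.

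Interferons are secreted proteins that cells release when pattern receptors detect foreign or misplaced nucleic acid. Type I interferon binds the receptor pair Ifnar1 and Ifnar2, the kinases Jak1 and Tyk2 phosphorylate Stat2, and Stat2 acts with Irf9 in a complex that binds the interferon-stimulated response element (ISRE) in the promoters of its target genes. Several of the same genes, among them Cxcl10, Isg15 and Rsad2, can also be switched on without interferon by Irf3 or by NF-κB, the transcription factor that the study followed in palmitate-treated spheroids.

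RNA was sequenced from 4T1, a mouse mammary carcinoma cell line, after 5 days of culture in 3 groups of 3 libraries. Cells were grown as 3D spheroids without added palmitate, as 3D spheroids with 75 µM added palmitate, or in 2D culture with 75 µM added palmitate. All 3 groups were unmodified cells of a single line, and the medium of every group contained serum, so the first group lacked only the extra palmitate. The comparison of 3D with 2D asked what culture form changes when palmitate is added, and the comparison within 3D asked what the extra palmitate changes.

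Total counts ranged from 6595514 in 3D with palmitate replicate 3 to 31177756 in a 2D library. All 8 epithelial markers were counted in every group, with a summed level of 5139 to 5412 CPM (counts of a gene per 1000000 counts of the library) in 3D with palmitate and 4173 to 4503 in 2D. In 3D against 2D 5 of these 8 were called higher, among them Epcam (1.43), and 2 lower, Krt7 (-0.51) and Cldn4 (-0.82) on the log2 scale. The 9 leukocyte markers summed to 7.54 to 11.7 CPM over the 6 libraries of 3D and to 24.6 to 28.3 CPM in 2D, nearly all of it Cd68, while the defining marker Ptprc never exceeded 0.613 CPM and Adgre1, Cd3e and Siglech were at 0 throughout. The 6 fibroblast markers summed to 93.4 to 111 CPM in 3D with palmitate and 33.2 to 34.6 in 2D. Pdgfra carried that direction, at a mean of 98.8 CPM in 3D with palmitate and 30.4 in 2D, while Col1a1 (-1.06) and Col1a2 (-4.66) were called lower in 3D at means of at most 2.18 CPM. The 4 endothelial markers stayed at or below 0.579 CPM. The part of these markers in the results was not tested. In bulk RNA, fewer cells that express a gene and less RNA of it per cell cannot be told apart. Nothing in the labels says that the libraries of a group came from separate cultures, so the p-values measure the spread between these libraries, which may be technical.

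Promoters of members that hold the ISRE are shown first, because it is the element through which the complex of Stat2 and Irf9 acts. Of the 37 members, 28 had an entry in the RefSeq promoter table (GRCm38.p6), and the 250 bases before each start were searched on both strands for the ISRE core GAAANNGAAA, where N is any base. At least 1 match was found in 10 of these 28 genes (35.7%), against 936 of 27025 genes (3.46%) and 978 of 32851 promoters (2.98%) in the whole table. The members with a match were Stat2, Ifit1, Ifit3, Rsad2, Bst2, Oas3, Isg15, Gbp2, Gbp3 and Cxcl10. The 5 printed here are those of the 8 members with the smallest p in the palmitate comparison that held a match, ordered by their p in 3D against 2D. Of the other 3 of those 8, Oasl1, which had the smallest palmitate p of all members, and Ifih1 held no match in this window, and Rtp4 had no entry. The printed sequences are written 5′ to 3′ along the gene with the ISRE core, in either orientation, in capitals.
Rsad2, chr12:26456453-26456702, minus strand: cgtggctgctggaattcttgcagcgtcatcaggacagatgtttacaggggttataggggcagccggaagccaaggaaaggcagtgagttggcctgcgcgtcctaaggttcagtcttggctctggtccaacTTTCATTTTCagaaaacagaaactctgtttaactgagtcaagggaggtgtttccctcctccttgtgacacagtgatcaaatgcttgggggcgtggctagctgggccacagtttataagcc
Cxcl10, chr5:92348890-92349139, minus strand: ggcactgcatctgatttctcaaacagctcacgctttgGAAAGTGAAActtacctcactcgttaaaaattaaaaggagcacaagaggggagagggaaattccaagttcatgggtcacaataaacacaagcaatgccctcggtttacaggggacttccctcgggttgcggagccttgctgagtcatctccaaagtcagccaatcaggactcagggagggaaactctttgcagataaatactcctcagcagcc
Isg15, chr4:156200819-156201068, minus strand: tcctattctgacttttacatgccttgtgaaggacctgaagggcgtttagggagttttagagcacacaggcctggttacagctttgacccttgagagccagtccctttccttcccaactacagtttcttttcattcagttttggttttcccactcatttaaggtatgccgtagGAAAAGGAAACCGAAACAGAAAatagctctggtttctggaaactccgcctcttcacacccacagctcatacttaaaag
Stat2, chr10:128270248-128270497, plus strand: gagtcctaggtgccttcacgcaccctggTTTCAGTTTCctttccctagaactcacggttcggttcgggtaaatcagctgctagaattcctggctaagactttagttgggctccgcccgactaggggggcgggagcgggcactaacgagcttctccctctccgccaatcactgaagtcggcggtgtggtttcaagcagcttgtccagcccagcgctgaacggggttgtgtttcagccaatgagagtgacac
Ifit1, chr19:34640639-34640888, plus strand: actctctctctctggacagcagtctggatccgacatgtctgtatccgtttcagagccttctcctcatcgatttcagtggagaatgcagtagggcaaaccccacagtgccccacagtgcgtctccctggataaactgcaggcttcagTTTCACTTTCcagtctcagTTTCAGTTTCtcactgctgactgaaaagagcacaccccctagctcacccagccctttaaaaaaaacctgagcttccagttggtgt
The match of Rsad2 lay 120 to 111 bases before the start and that of Stat2 lay 222 to 213 bases before it. In Isg15 3 overlapping matches ran from 78 to 57 bases before the start, and Ifit1 held 2 separate matches, from 104 to 95 and from 85 to 76 bases before it. The promoter of Cxcl10 held the core 213 to 204 bases before the start and also a match to GGGANNTTCC, a κB site sequence searched after the values were seen, 159 to 150 bases before it. That κB sequence was present in 397 of 32851 promoters (1.21%), or 368 of 27025 genes (1.36%). Of the 28 members it was present in 3 (10.7%), namely Ifit2, Isg20 and Cxcl10. Gbp2 and Oas3, which had the opposite direction to these 5 genes in 3D against 2D, also held an ISRE core. It lay 59 to 50 bases before the start in Gbp2 and 75 to 66 bases before it in Oas3. A match is a run of letters and not evidence of binding, and no factor was measured here.

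The 36 tested members of the list were called in both directions in 3D against 2D at about the rate of all genes. In 3D against 2D, both with palmitate, 11 members were higher in 3D, 14 were lower and 11 were not called at an adjusted p under 0.05. The called share was 25 of 36 (69.4%), close to the 68.3% of all tested genes, of which 34.5% were higher and 33.9% lower. The median log2 fold change of the members was -0.13, beside 0.0083 over all genes tested. In 24 of the 36 the 3 libraries of one group lay wholly outside the range of the other, which was so for 69.4% of all genes. The members spread from 5.79-fold higher in 2D for Rsad2 to 9.12-fold higher in 3D for Mx1.

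**Figure D1:**
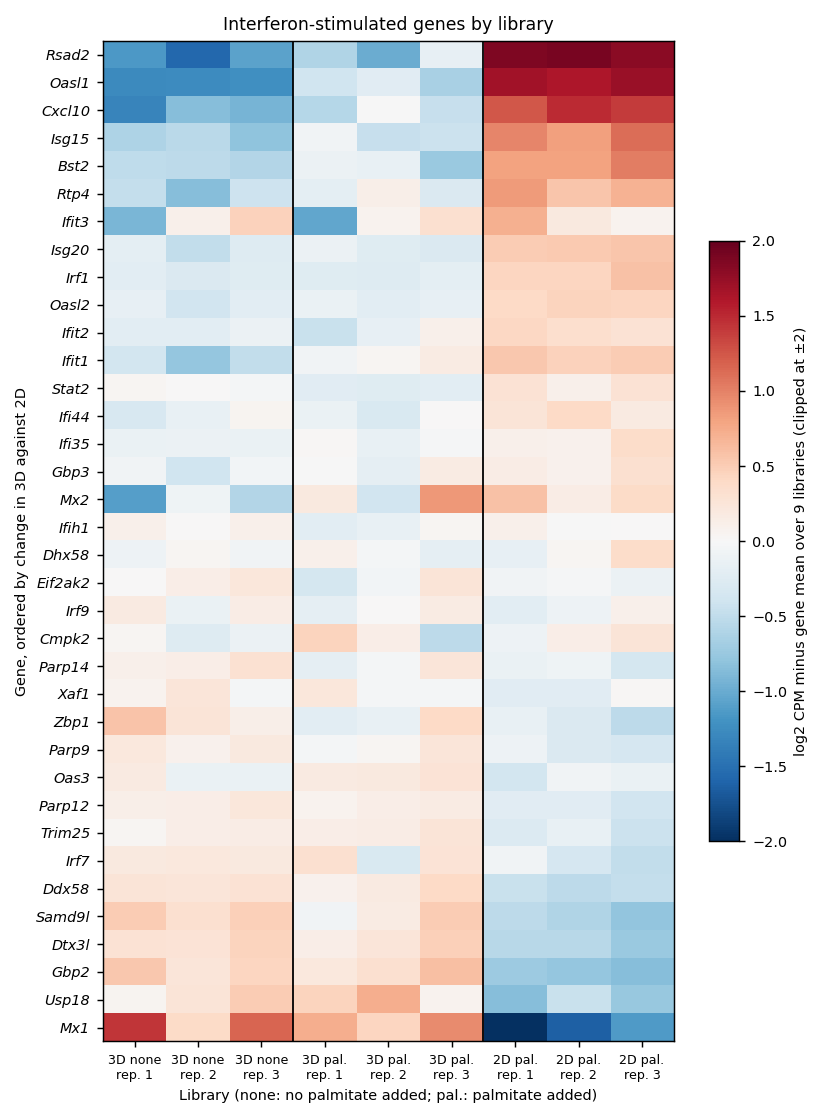
Relative level of the 36 tested interferon-stimulated genes (rows, ordered by their change in 3D against 2D) in the 9 libraries (columns); color gives log2 CPM minus the gene's mean over the libraries, red above and blue below. Rsad2, Oasl1 and Cxcl10 at the top were highest in the 3 libraries of 2D, and Mx1, Usp18 and Gbp2 at the bottom were lowest there.

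Added palmitate changed few of these genes in 3D. Oasl1 and Ifit1 were called higher with palmitate and 0 members were called lower, so that 2 of 36 were called where the share over all tested genes was 2.19% (1.38% higher and 0.811% lower). At an unadjusted p under 0.05 there were 8 members higher and 2 lower, 10 in all, where 17.3% of all genes had such a p. DESeq2 called the same 2 genes, Ifit1 and Oasl1, and 0 lower. The median log2 fold change was 0.014 and the values ran from -0.46 to 0.92. The groups did not overlap in 8 of the 36 members (18.6% of all genes). Both comparisons use the 3 libraries of 3D with palmitate, so their values are given side by side below and not related to each other.

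**Figure D2:**
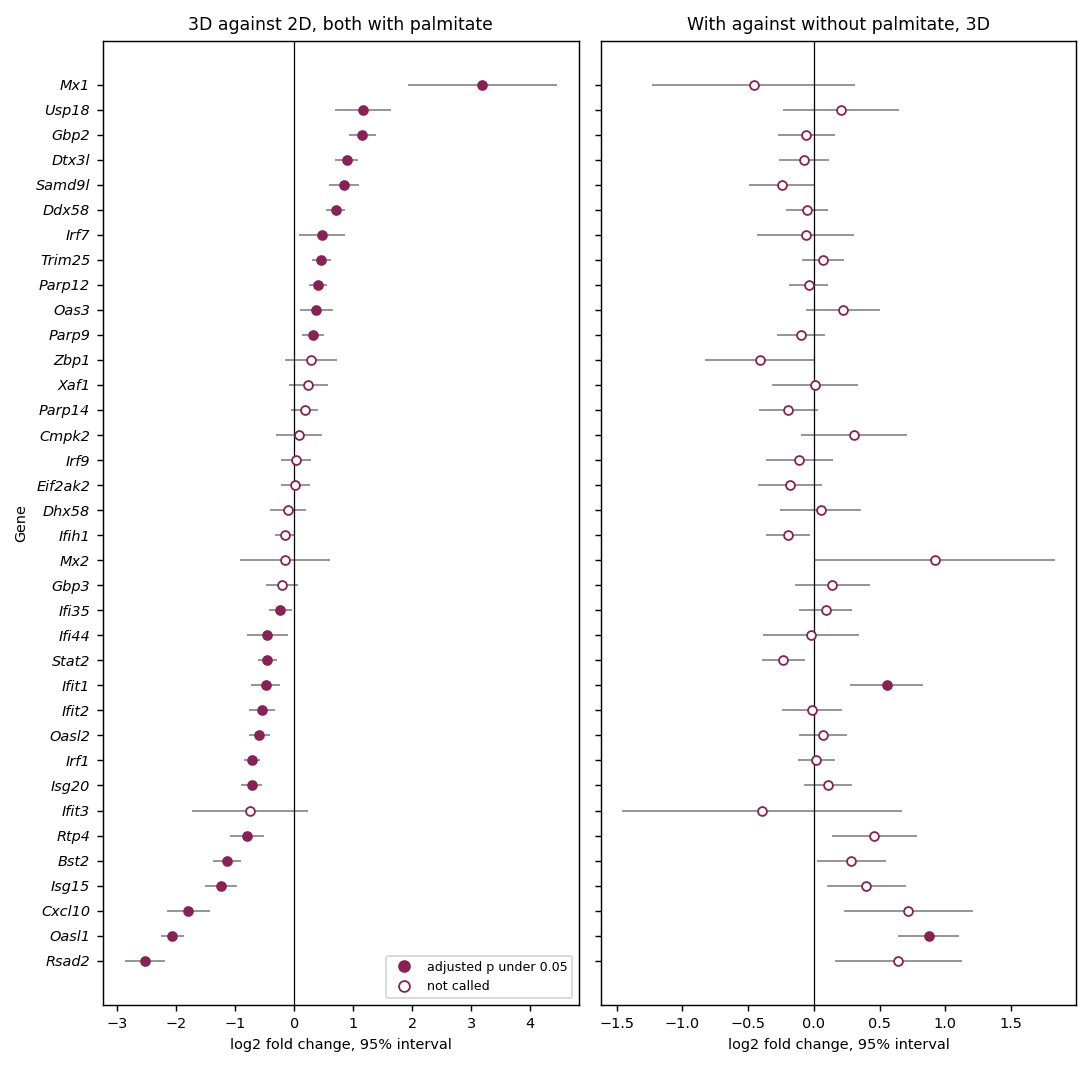
Log2 fold change of the 36 tested members with its 95% interval in 3D against 2D with palmitate (left) and in 3D with against without palmitate (right); filled points passed an adjusted p of 0.05 over all genes. On the left 14 filled points lie below 0 and 11 above it, and on the right only Oasl1 and Ifit1 are filled.

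Among the transcription factors of the pathway, Stat2 and Irf1 were lower in 3D than in 2D. Stat2, which joins Irf9 in the ISRE-binding complex, measured 39.2, 34.4 and 39.3 CPM in 2D, 27.3, 27.1 and 27.6 CPM in 3D with palmitate and 32.9, 32.1 and 31.1 CPM in 3D without it. The 3 groups did not overlap, and the lowest values were those of the spheroids with palmitate. The log2 fold change of Stat2 was -0.46 ± 0.08 (SE) in 3D against 2D (adjusted p = 8.12e-05), and -0.23 ± 0.08 with against without palmitate, which missed the threshold (adjusted p = 0.132). Irf1, a factor induced by interferon gamma and by NF-κB, was at 68.3 ± 1.67 CPM in 3D with palmitate and 112 ± 6.97 in 2D (SD, n = 3; log2 fold change -0.72, adjusted p = 1.93e-07), and its palmitate value was 0.02. Irf7, which amplifies production of type I interferon, was called higher in 3D by 0.47 (adjusted p = 0.0303), yet its libraries overlapped and the call was lost in 6 of 15 alternatives, with 3.34 to 5.26 CPM in 3D and 2.94 to 3.97 in 2D. Irf9 had a log2 fold change of 0.02 in 3D against 2D and -0.11 with palmitate, neither called.

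The 3 cytosolic RNA sensors of the RIG-I family differed among themselves. Ddx58, which encodes RIG-I, measured 83.9, 89.8 and 104 CPM in 3D with palmitate, 94.9, 93.8 and 96.8 without it, and 58.1, 55.3 and 56.6 in 2D. Every spheroid library lay above every 2D library, and the log2 fold change of Ddx58 in 3D against 2D was 0.70 ± 0.08 (1.62-fold, adjusted p = 1.30e-06). Ifih1, which encodes MDA5, was at 26.2, 27.3 and 30.9 CPM in 3D with palmitate, at 32.5, 30.4 and 32.3 without it and at 32.3, 30.1 and 30.3 in 2D. The groups of Ifih1 overlapped in both comparisons, and neither its value against 2D (-0.15, adjusted p = 0.0977) nor its palmitate value (-0.20, adjusted p = 0.212) was called. With GC content and length corrected, the value of Ifih1 against 2D was -0.36 and passed (adjusted p = 8.91e-05), as it did without 3D with palmitate replicate 3 (-0.21, adjusted p = 0.0202), and over all its alternatives the adjusted p reached 0.326. Dhx58, which encodes LGP2, a helicase of the same family that lacks the signaling domain, stayed at 6.43 to 9.4 CPM over the 9 libraries and was called in neither comparison.

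The IFIT and ISG effectors included the member that was lowest in spheroids relative to 2D. Of 11 genes, 6 were lower in 3D than in 2D, 1 was higher and 4 were not called, beside 33.9% of all genes lower and 34.5% higher. Rsad2, or viperin, an enzyme that makes a chain-terminating nucleotide analog, measured 12.2, 12.6 and 11.7 CPM in 2D against 2.13, 1.60 and 2.91 in 3D with palmitate and 1.42, 1.03 and 1.52 in 3D without it. The 2D libraries stood far above all spheroid libraries, and those with palmitate lay just above those without. Rsad2 was thus 5.79-fold higher in 2D (log2 fold change -2.53 ± 0.16 for 3D against 2D, adjusted p = 5.17e-09), and its palmitate value of 0.64 ± 0.23 was not called (adjusted p = 0.160). Cmpk2, a mitochondrial nucleotide kinase whose gene lies beside Rsad2 on chromosome 12 (chr12:26469204-26479837, GRCm38), did not share this difference, with 4.67 ± 1.51 CPM in 3D with palmitate and 4.77 ± 0.59 in 2D (SD, n = 3).

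Bst2, or tetherin, a membrane protein that holds budding virus at the cell surface, measured 45.1, 45.2 and 52.2 CPM in 2D, 23.7, 23.1 and 15.3 in 3D with palmitate and 18, 17.8 and 17.1 without it. Replicate 3 with palmitate lay below all libraries without palmitate, while the other two lay above them. Against 2D the log2 fold change of Bst2 was -1.14 ± 0.11 (adjusted p = 5.82e-07), and its palmitate value was 0.29 ± 0.12 (adjusted p = 0.247). Rtp4, an interferon-induced receptor transporter protein, measured 14.7, 11.9 and 13.2 CPM in 2D, 7.07, 8.81 and 6.59 in 3D with palmitate and 5.81, 4.46 and 6.02 without it. The 3 groups of Rtp4 did not overlap, and its log2 fold changes were -0.80 ± 0.14 against 2D (adjusted p = 0.000114) and 0.46 ± 0.15 with palmitate (adjusted p = 0.135). Of the 50-base stretches of its transcripts, 13.6% also occurred in the gene model Gm45338, so some of its reads could have been lost or shared.

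The 3 IFIT genes, whose proteins bind foreign RNA, sit in a cluster on chromosome 19. Ifit1 (chr19:34640871-34650009, GRCm38) measured 5.86, 4.39 and 5.37 CPM in 3D without palmitate, 7.29, 7.82 and 8.58 with it and 11.2, 10.5 and 10.9 in 2D. The groups of Ifit1 did not overlap and stepped up from spheroids without palmitate, through spheroids with it, to 2D. Its log2 fold change was 0.56 ± 0.13 with palmitate (1.47-fold, adjusted p = 0.0423) and -0.49 ± 0.12 in 3D against 2D (adjusted p = 0.00200). The palmitate call of Ifit1 depended on single libraries. Its adjusted p was 0.0613 to 0.153 when any one of the other 5 libraries of that comparison was left out, and 0.0193 without 3D with palmitate replicate 3. Ifit2 was also lower in 3D than in 2D (-0.54, adjusted p = 0.000300), with a palmitate value of -0.02. Ifit3 had 6 to 26 counts in a library, shared 51.2% of its 50-base stretches with its copy Ifit3b and was called in neither comparison.

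Isg20, an exonuclease for single-stranded RNA, was at 30.5 ± 1.85 CPM in 3D with palmitate and 50.9 ± 0.933 in 2D (SD, n = 3; log2 fold change -0.73, adjusted p = 2.04e-06). The 1 effector that was higher in 3D was Samd9l, a cytoplasmic restriction factor, with 62.1, 73.5 and 93.3 CPM in 3D with palmitate, 92.9, 81.2 and 91.1 without it and 45.4, 42.9 and 37.9 in 2D. All spheroid libraries of Samd9l exceeded all 2D libraries, and within the palmitate group replicate 3 lay at the level of the spheroids without palmitate. The log2 fold change of Samd9l was 0.84 ± 0.12 against 2D (adjusted p = 2.13e-05) and -0.24 ± 0.12 with palmitate (adjusted p = 0.298). Eif2ak2, the kinase PKR that halts translation on sensing double-stranded RNA, and Zbp1, a sensor of left-handed nucleic acid, were called in neither comparison, with 0.02 and 0.28 in 3D against 2D and -0.18 and -0.41 with palmitate on the log2 scale.

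**Figure D3:**
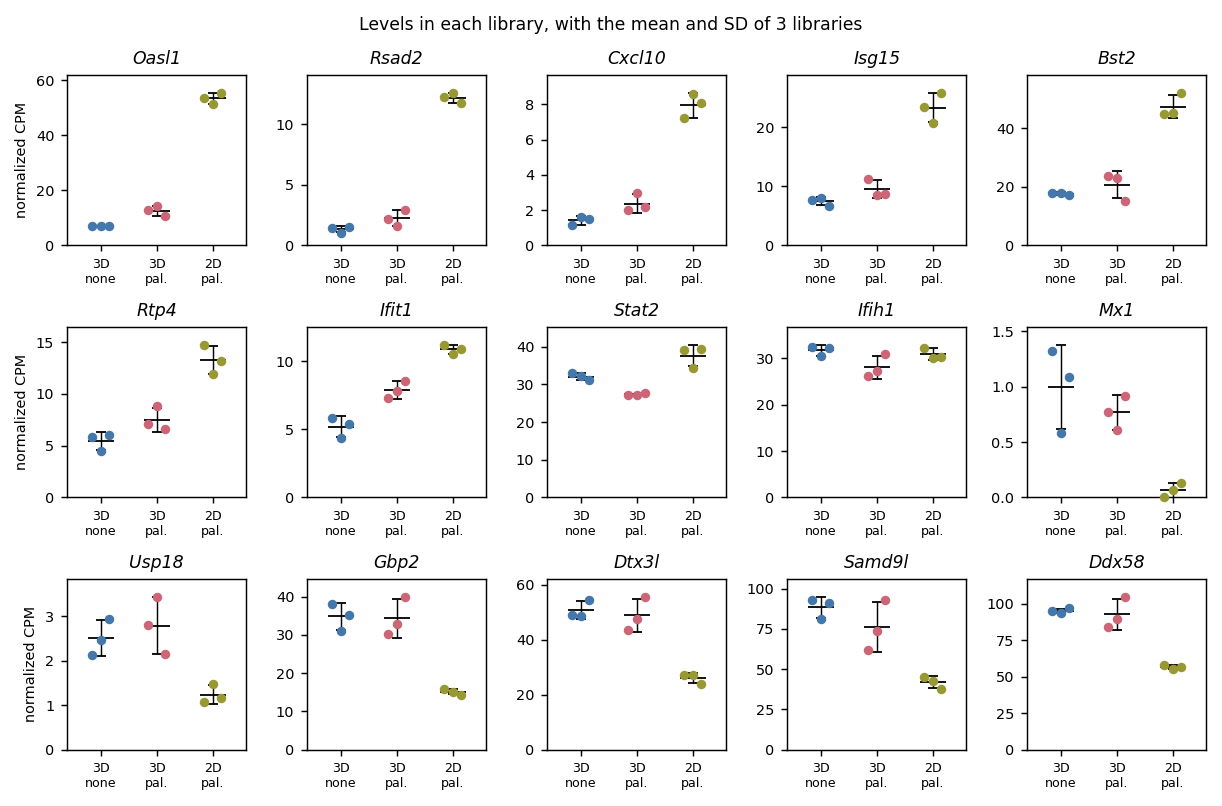
Normalized CPM of 15 members in every library, in 3D without palmitate (blue), 3D with palmitate (red) and 2D with palmitate (olive), on linear axes from 0; bars give the mean and SD of 3 libraries. Oasl1, Rsad2, Cxcl10, Isg15, Bst2 and Rtp4 were highest in 2D, and Mx1, Usp18, Gbp2, Dtx3l, Samd9l and Ddx58 were lowest there.

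In the OAS and MX families, 2 members were higher in 3D, 2 were lower and 1 of the 5 tested was not called. Of all tested genes, 34.5% were higher and 33.9% lower. Oasl1 (chr5:114923240-114937915, GRCm38), an OAS-like protein that lacks synthetase activity and in mice restrains translation of Irf7, measured 6.85, 6.91 and 7.11 CPM in 3D without palmitate, 12.7, 14.3 and 10.6 with it and 53.6, 51.5 and 55.4 in 2D. No 2 of these groups overlapped. Oasl1 was 1.83-fold higher with palmitate (log2 fold change 0.87 ± 0.11, adjusted p = 0.000920) and 4.19-fold higher in 2D than in 3D (-2.07 ± 0.09, adjusted p = 8.95e-11). The palmitate call of Oasl1 held in all 15 alternatives, with values of 0.75 to 0.94 and adjusted p between 5.09e-09 and 0.0220. Its neighbor Oasl2 differed less, at 18.7 ± 0.53 CPM in 3D with palmitate and 28.1 ± 0.462 in 2D (SD, n = 3; log2 fold change -0.59, adjusted p = 1.58e-05), with a palmitate value of 0.07. Oas3, which makes the oligoadenylates that activate RNase L, was higher in 3D by 0.37 (adjusted p = 0.0215), a call lost in 2 of 15 alternatives. The levels of Oas2, untested, lay between 0.0827 and 0.699 CPM.

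Mx1 encodes a GTPase that blocks viral nucleocapsids and, like Mx2, carries inactivating mutations in most inbred mouse strains. It was rare in all groups, at 0.773, 0.608 and 0.919 CPM in 3D with palmitate, 1.32, 0.582 and 1.08 without it and 0, 0.0641 and 0.134 in 2D. The 2D libraries held 0, 2 and 3 counts of Mx1, below every spheroid library. Its log2 fold change of 3.19 ± 0.59 for 3D against 2D (adjusted p = 0.000232) therefore has a wide 95% interval, 1.92 to 4.45. The summed counts were 35 in 3D with palmitate and 5 in 2D, a ratio per total count of 9.75 with an exact 95% interval of 3.81 to 31.9, which covers counting error only, since reads are not independent molecules. Mx2, with 5 to 22 counts in a library, had the highest palmitate value of all members, 0.92 ± 0.43, which was not called (adjusted p = 0.288), and a value of -0.16 in 3D against 2D. Mx1 and Mx2 share 4.77% and 6.71% of their 50-base stretches with each other.

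In the ISG15 system, the modifier and the protease that removes it had opposite directions in 3D against 2D. Isg15, a ubiquitin-like protein that is attached to other proteins, measured 23.4, 20.8 and 25.8 CPM in 2D, 11.3, 8.51 and 8.73 in 3D with palmitate and 7.61, 8.08 and 6.73 without it. The 3 groups of Isg15 did not overlap, with log2 fold changes of -1.24 ± 0.13 in 3D against 2D (adjusted p = 6.28e-07) and 0.40 ± 0.14 with palmitate (adjusted p = 0.158). Usp18, the protease that removes Isg15 and also blocks signaling at Ifnar2, went the other way, with 1.08, 1.47 and 1.16 CPM in 2D, 2.80, 3.42 and 2.14 in 3D with palmitate and 2.13, 2.46 and 2.93 without it. All spheroid libraries of Usp18 lay above all 2D libraries, and its log2 fold change against 2D was 1.16 ± 0.22 (adjusted p = 0.000324). Its palmitate value of 0.20 ± 0.21 was not called (adjusted p = 0.665).

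The ubiquitin ligases Trim25 and Dtx3l were both higher in 3D than in 2D. Trim25, which acts in RIG-I signaling, had a log2 fold change of 0.46 (adjusted p = 7.72e-05). Dtx3l measured 43.7, 47.4 and 55.4 CPM in 3D with palmitate, 49.1, 48.5 and 54.6 without it and 27.1, 27.1 and 24 in 2D. The 2D libraries lay below all others, and the log2 fold change of Dtx3l was 0.89 ± 0.09 (adjusted p = 9.02e-07). Parp9, its binding partner, was higher in 3D by 0.31 (adjusted p = 0.00484). Dtx3l and Parp9 lie on opposite strands of chromosome 16 with 458 bases of overlapping exons, and the strand setting of the counting is not given in the sources used here, so their reads cannot be fully told apart. Of the other ADP-ribosyltransferases, Parp12 was higher in 3D by 0.40 (adjusted p = 0.000146), and Parp14 was not called (0.18, adjusted p = 0.152). The palmitate values of these 5 genes lay between -0.19 and 0.07, none of them called.

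The chemokine of the list and 1 guanylate-binding protein, Gbp2, had opposite directions in 3D against 2D. Cxcl10, which draws T cells through the receptor Cxcr3, measured 7.20, 8.59 and 8.06 CPM in 2D, 1.99, 2.96 and 2.14 in 3D with palmitate and 1.13, 1.62 and 1.52 without it. The 3 groups of Cxcl10 did not overlap. It was 3.47-fold higher in 2D (log2 fold change -1.79 ± 0.17 for 3D against 2D, adjusted p = 3.75e-07), and its palmitate value of 0.72 ± 0.23 was not called (adjusted p = 0.119). An exon of Art3 covers 133 bases of Cxcl10 on the opposite strand. Gbp2, a GTPase that attacks vacuoles of intracellular pathogens, measured 30.2, 32.8 and 39.8 CPM in 3D with palmitate, 38.1, 31.1 and 35.3 without it and 15.8, 15.2 and 14.4 in 2D. Both spheroid groups overlapped each other and lay above 2D, with 1.15 ± 0.11 in 3D against 2D (2.22-fold, adjusted p = 2.89e-07) and -0.06 with palmitate (adjusted p = 0.823). Its relative Gbp3 was called in neither comparison (-0.21 and 0.14).

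Among the remaining members, Ifi35 (-0.24, adjusted p = 0.0327) and Ifi44 (-0.46, adjusted p = 0.0206) were lower in 3D than in 2D. Each of these calls was lost in 5 of 15 alternatives, and reads of Ifi35 could be shared with Gm11626, which overlaps 290 of its exon bases on the opposite strand. Xaf1, a pro-apoptotic binding partner of Xiap, was not called (0.24, adjusted p = 0.184). The palmitate values of these 3 genes were between -0.02 and 0.09.

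Set against each other per kilobase of transcript, the levels of the members covered a wide range. In 3D with palmitate Irf1 had the highest level, 32.0 ± 0.78 CPM per kb, followed by Isg20 at 28.0 ± 1.7, Bst2 at 26.1 ± 5.9 and Ddx58 at 23.9 ± 2.7 (SD, n = 3), and the SD of Bst2 reached the levels of the other three. In 2D the order at the top was Bst2 at 59.95 ± 5.1, Irf1 at 52.4 ± 3.3, Isg20 at 46.8 ± 0.86 and Isg15 at 30.9 ± 3.3 CPM per kb, where Bst2 and Irf1 overlapped within their SDs. Oasl1 stood at 24.5 ± 0.91 CPM per kb in 2D and at 5.73 ± 0.85 in 3D with palmitate. In 3D with palmitate the lowest tested members were Ifit3, Mx2 and Mx1, all under 1 CPM per kb.

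The number of palmitate calls changed with every library left out, and most with 1 of them. Without any one of the other 5 libraries compared, 71 to 148 genes were called in place of 275, and of the members only Oasl1. Replicate 3 of 3D with palmitate, the smallest of the 9, had 26 of the 36 members above its group's mean, by a median of 0.13 on the log2 scale, and replicate 3 of the spheroids without palmitate also had 26 above, by a median of 0.045. The median absolute deviation in replicate 3 with palmitate was 0.17 over the members and 0.134 over all genes. In it 22 of the 36 members lay closer to the mean of the spheroids without palmitate than to the mean of the other two palmitate libraries, against 12 members in replicate 1 and 13 in replicate 2. Over all genes these shares were 62.9%, 51.7% and 37.7% for replicates 3, 1 and 2. Without this library, 5 members were called higher with palmitate (8.56% of all genes) and 4 were called lower (6.3% of all genes), in place of 2 and 0. The 5 higher were Oasl1 (0.94, adjusted p = 2.74e-05), Ifit1 (0.51, adjusted p = 0.0193), Rtp4 (0.50, adjusted p = 0.0378), Isg15 (0.45, adjusted p = 0.0426) and Bst2 (0.41, adjusted p = 0.00686). The 4 lower were Samd9l (-0.40, adjusted p = 0.00626), Eif2ak2 (-0.33, adjusted p = 0.0149), Parp14 (-0.30, adjusted p = 0.0357) and Ifih1 (-0.25, adjusted p = 0.0317). Why this library differed was not tested, and the labels give no ground to leave it out.

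**Figure D4:**
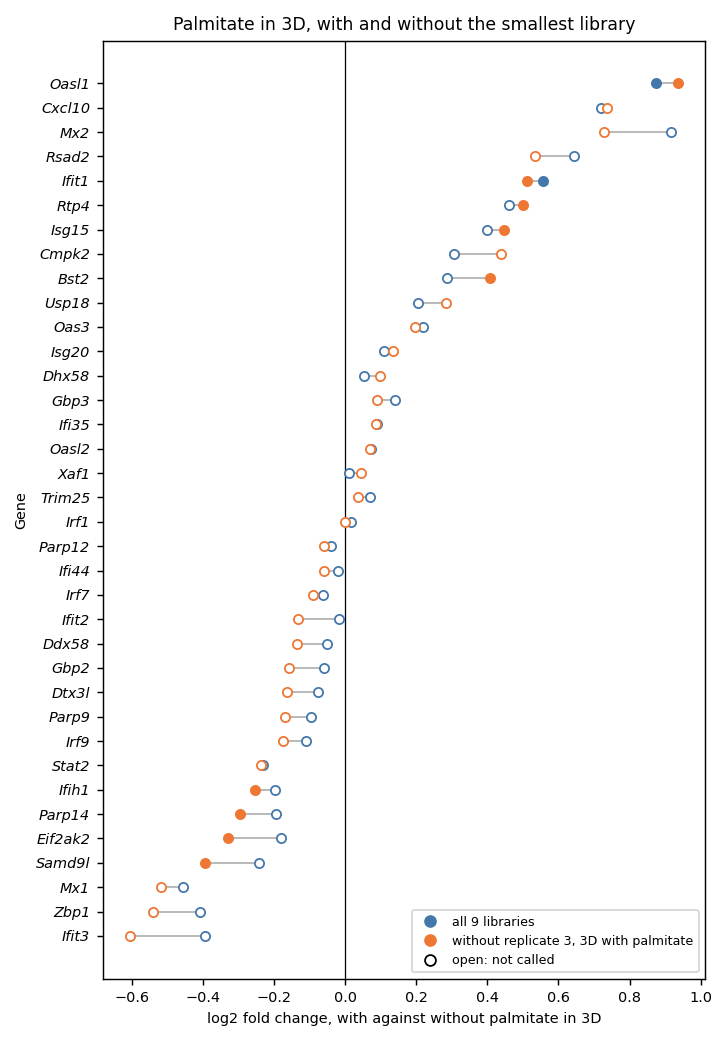
Log2 fold change of the 36 tested members with against without palmitate in 3D, fitted to all 9 libraries (blue) and without 3D with palmitate replicate 3 (orange); filled points passed an adjusted p of 0.05 and a gray line joins the values of a gene. With all libraries Oasl1 and Ifit1 are filled, and without replicate 3 another 7 members are, 3 above 0 and 4 below it.

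Upstream of these genes, few or no reads were counted for the listed interferon genes. Sequence shared among the interferon genes was not examined, so reads that fit several of them could have been lost. None of the 13 interferon ligand genes passed the filter in any group: Ifnb1 had 2 counts over all 9 libraries, Ifne 7, Ifng 17 and Ifnk 29, and Ifna1, Ifna2, Ifna4, Ifna5, Ifna11, Ifnl2 and Ifnl3 had 0. The receptors and kinases were present, and in 3D against 2D 7 of 11 were higher and 2 lower, beside 34.5% and 33.9% of all genes. Jak2, the kinase of the interferon gamma and several cytokine receptors, was higher in 3D by 1.98 (adjusted p = 4.74e-10), Stat3 by 0.99 (adjusted p = 1.57e-08) and Ifnar1 by 0.68 (adjusted p = 1.86e-07). Ifnar2, the other chain of the type I receptor, was lower in 3D (-0.77, adjusted p = 3.95e-07).

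The list of sensors and adaptors had 5 of 17 tested genes higher in 3D, 4 lower and 8 not called. The all-gene shares were 34.5% higher and 33.9% lower. Irf5, a factor downstream of Toll-like receptors, was lower (-1.59, adjusted p = 1.21e-07), as was Samhd1, which degrades deoxynucleotides (-0.91, adjusted p = 1.57e-07), and Mavs, the mitochondrial adaptor of RIG-I and MDA5, was higher (0.62, adjusted p = 1.71e-06). Of 12 feedback inhibitors 6 were higher in 3D, among them the phosphatase Ptpn6 (0.51, adjusted p = 1.34e-05) and the kinase inhibitor Socs3 (0.53, adjusted p = 3.96e-05), and 2 were lower, among them the phosphatase Ptpn2 (-0.66, adjusted p = 6.18e-07). The 8 called were 66.7% of this list, against 68.3% of all genes.

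A further list held 78 interferon-stimulated genes outside the 37. Of the 66 that passed the filter, 38 were higher in 3D (34.5% of all genes), 11 were lower (33.9% of all genes) and 17 were not called, with a median log2 fold change of 0.54. The 3 with the smallest p were Casp1, the inflammasome protease (2.30, adjusted p = 6.80e-11), Lap3, an aminopeptidase (-1.22, adjusted p = 3.10e-10), and Ccl5, a chemokine (-3.27, adjusted p = 6.83e-10). The bar chart sets this list beside the others, and no test compared the lists with each other.

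**Figure D5:**
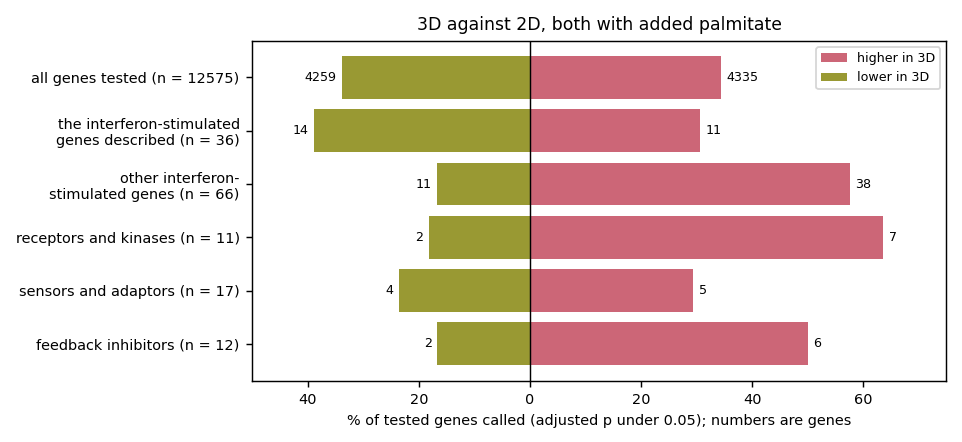
Share of tested genes called higher (right, red) or lower (left, olive) in 3D against 2D with palmitate, for all genes and for 5 lists; numbers at the bars count genes. The 36 members (11 higher and 14 lower) lay near the share of all genes, and the 66 other interferon-stimulated genes had 38 higher and 11 lower.

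With palmitate, edgeR called 0 genes in each of these upstream and further lists. At an unadjusted p under 0.05, 2 of the 17 sensors and adaptors were higher, and 0 receptors, kinases or feedback inhibitors passed. Of the 66 further interferon-stimulated genes, 6 were higher and 7 lower at that threshold. Over all tested genes, 17.3% had such a p. DESeq2 called 2 of the further genes lower, Gbp9 and Ifi203, and 0 in the other lists. Gbp9, a guanylate-binding protein, stood at -0.49 on the log2 scale (adjusted p = 0.0524), and Ifi203 and Mndal, of the family of interferon-inducible DNA-binding proteins, had -0.33 (adjusted p = 0.0912) and -0.41 (adjusted p = 0.0923). In all 3 genes replicate 3 was the highest of the palmitate libraries, for Mndal at 117 CPM beside 74.0 and 83.2 in the other two and 111 to 123 without palmitate. Reads of Mndal and Ifi203 are uncertain, as 27.2% and 10.9% of their 50-base stretches occur in related genes. Tmem173, which encodes the DNA-sensing adaptor STING, had 0.22 (adjusted p = 0.121) and Myd88, the adaptor of Toll-like receptors, 0.23 (adjusted p = 0.146).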

How the data were processed

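RNA was measured in 9 libraries of 4T1 cells, assigned to 3 groups of 3 from the sample labels. The values deposited by the authors are raw counts of reads in each gene. By their methods and processing notes, reads were checked with FastQC (version 0.11.9), aligned to GRCm38 with HISAT2 (version 2.1.0) and counted with HTSeq, from a stranded mRNA library kit. The annotation release and strand setting are not given in the sources used here. Total counts of 6595514 to 31177756 set the precision.

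Counts were tested in R 4.3.3 with edgeR 4.0.16: filterByExpr, TMM scaling and a quasi-likelihood model with group as the only term, fitted to all 9 libraries. The p-values are two-sided with Benjamini-Hochberg adjustment over 12575 genes, and genes with an adjusted p under 0.05 were called. The ± beside a log2 fold change is its standard error. CPM were scaled by TMM, and no column was left unused. Levels per kb used the longest GENCODE basic transcript of a gene, coding where it has one. Of 24421 genes, 24046 were matched to an annotation entry. Values in every library are given for the 8 members with the smallest p in the palmitate comparison, and for the 6 highest and 6 lowest called in 3D against 2D. In every other list up to 3 genes with the smallest p are named.

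The members and lists were chosen with earlier results of these data known. Alternatives were other scalings, filters, DESeq2 1.42.0, only the groups compared, the replicate number as a block, a minimum fold, a correction for GC content and length, each library left out, and, chosen after seeing the data, the share of Rn45s as a covariate. Scripts were tested on simulated data.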

Additional observations from a re-analysis of the deposited data

How the results depend on the processing

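In 3D against 2D, 21 of the 25 called members kept their call in every alternative other than a minimum fold, and Irf7, Oas3, Ifi35 and Ifi44 lost it in at least 1 (highest adjusted p 0.315, 0.308, 0.982 and 0.0928). When calls also had to exceed 0.5 on the log2 scale, the members higher in 3D went from 11 to 6, those lower from 14 to 10 and all genes called from 8594 to 5113. Leaving out 1 library gave 10 to 11 members higher, 12 to 15 lower and 7977 to 8866 genes in all.

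In the palmitate comparison, Oasl1 kept its call in every alternative and Ifit1 did not. The members called higher went from 2 to 1 with library size only, with only the 2 groups compared, with the replicate block and with Rn45s as a covariate, and ranged from 1 to 5 when 1 library was left out. The members called lower went from 0 to 1 with no filter (Samd9l) and ranged from 0 to 4 when 1 library was left out, the 4 without 3D with palmitate replicate 3. All genes called went from 275 to 617 with no filter, 77 with only the 2 groups compared, 111 with the replicate block, 119 with the minimum fold, 1035 with GC content and length corrected and 44 with Rn45s as a covariate, and from 71 to 1901 when 1 library was left out, 1901 again without that replicate 3. The share of calls that were higher was 62.9% and became 46.7% with library size only and 52.7% with no filter.

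No pairing of the libraries by replicate number was seen in their deviations from the group means. Same-numbered libraries of different groups correlated at -0.24 to 0.15, and 0 of 9 correlated best with their own number in both other groups. With so few libraries in a group, these correlations cannot show that the libraries were unpaired. Signs turned only for values that were not called in the fit to all 9 libraries described above. Of these, Parp14 was called with opposite signs in different alternatives. In 3D against 2D, Irf9 was -0.0045 with no filter and -0.045 to 0.12 with 1 library left out. Eif2ak2 was -0.012 with no filter, -0.13 with GC content and length corrected and -0.13 to 0.16 with 1 library left out. Parp14 was -0.17 with that correction, then called (adjusted p = 0.0268), and was also called at 0.27 without 3D with palmitate replicate 1, within a range of 0.074 to 0.27. Mx2 was 0.042 with Rn45s as a covariate and -0.35 to 0.058 with 1 library left out, Dhx58 -0.21 to 0.043 and Cmpk2 -0.20 to 0.21. With palmitate, Socs1 was -0.045 to 0.47. The cause of these shifts was not tested. Few counts limited Mx1, Mx2, Ifit3 and Oas2.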
